A study of Mus musculus with 21 samples.

Results

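The small heat shock proteins are the smallest class of stress-inducible chaperones, and 7 of their genes (Hspb1, Hspb2, Hspb3, Cryab, Hspb6, Hspb7 and Hspb8) were followed here by symbol among the 53738 gene symbols quantified in mouse quadriceps muscle. All 7 were found, and all 7 exceeded 1 TPM (a transcript level corrected for transcript length and scaled to a near-equal total in every library) in every library. Bulk RNA-seq was available for 7 groups of 3 libraries. All mice were male wild-type C57/Bl6 animals of 22 to 26 weeks. Sedentary mice neither trained nor exercised. Untrained mice ran on a treadmill to exhaustion, and trained mice did the same after 12 weeks with a running wheel. Muscle of these mice was taken directly (0 h), 6 h or 72 h after the run. The run was itself a maximal capacity test that closed the training period, without rest days before it. Since no group was trained and left unexercised, training and the run cannot be told apart where trained muscle is set against sedentary muscle.

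Small heat shock proteins share an alpha-crystallin domain and assemble into dimers and larger oligomers. They need no ATP. They hold partly unfolded proteins in a soluble state until ATP-driven chaperones of the HSP70 class refold them or hand them over for degradation. Striated muscle is unusually rich in them, and there they associate with desmin, actin, titin and filamin C at the Z-disc and in the intermediate filaments. Heat shock factor 1 drives the stress-inducible members through heat shock elements, short promoter stretches built from inverted repeats of the unit GAA. Small heat shock proteins are known to be induced by strenuous or unaccustomed muscle work.

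Promoter sequences from RefSeq (GRCm38.p6, 250 bases before to 50 bases after each start) were found for 5 of the 7 genes. Hspb2 and Cryab had no entry. The windows are shown because the inducible members of this family are classic targets of heat shock factor 1. The capitals mark the inverted pair GAANNTTC, which reads the same on both strands, with 10 flanking bases on either side, written 5′ to 3′ on the strand of the gene.

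Hspb1, chr5:135887792-135887819, plus strand, pair at position -117 from the start: ttcaacaagaGAAGTTTCcagatggggg
Hspb1, chr5:135887812-135887839, plus strand, pair at position -97: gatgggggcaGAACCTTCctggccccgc
Hspb3, chr13:113663883-113663910, minus strand, pair at position -224: tccccgaatgGAATTTTCaggcagaggg
Hspb6, second promoter, chr7:30553171-30553198, plus strand, pair at position -120: agtaattattGAAGTTTCtaaataagga
Hspb8, chr5:116422845-116422872, minus strand, pair at position 2: gaagccaggaGAAGTTTCtaggctcgcg

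Hspb1 was the member with 2 such pairs. The same 8 letters, GAAGTTTC, stood in the promoters of Hspb1, Hspb6 and Hspb8. No pair was found in the promoter of Hspb7 or in the other promoter of Hspb6, and the opposite arrangement TTCNNGAA was found in none of these promoters. Of all 32851 mouse promoters of the same length, 7.86% held GAANNTTC, 8.52% held TTCNNGAA and 1.21% held GAAGTTTC on either strand. A match is one of letters only and says nothing of binding.

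In GRCm39, all 7 genes are annotated as protein-coding. Hspb2 (chr9:50662378-50663858, minus strand) lies inside the annotated span of Cryab (chr9:50651859-50668567, plus strand), and their annotated exons overlap by 757 bases on opposite strands. The library kit does not mark the strand, so reads from this stretch cannot be told apart, and it makes up 53.7% of the 31-base stretches of Hspb2 and 13.2% of those of Cryab. Hspb1 (chr5:135916760-135918417, plus strand) shares 46.5% of its 31-base stretches with the processed pseudogene Hsp25-ps1, which averaged 0.0232 TPM. The TPM of another symbol, Gm9817, followed that of Hspb1 with a Pearson's r of 0.999 over the 20 distinct libraries and lay at 14.3% to 17.0% of it. The sequence of Gm9817 was not examined here, so it is not known whether the 2 symbols share reads. The remaining genes are Hspb3 (chr13:113799432-113800212, minus strand), Hspb6 (chr7:30251603-30256218, plus strand), Hspb7 (chr4:141148090-141152625, plus strand) and Hspb8 (chr5:116546409-116561084, minus strand).

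The column of untrained 0 h replicate 1 was identical to that of trained 0 h replicate 1 for all 53738 symbols, so the table holds 20 distinct libraries. To which 0 h group that library belongs is not known. It was kept in both groups as deposited, and the tests that involve 0 h were repeated without it (n = 2 in each 0 h group). TPM values keep no read counts, so depth is unknown. Nothing in the labels says whether the replicates came from separate animals, and p values measure the spread between these libraries only. Summed TPM of 9 fast fibre markers ranged from 64804 to 87434 over all libraries and that of 8 slow fibre markers from 285 to 1262.

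The 7 genes together held 1026, 1194 and 1238 TPM in the sedentary libraries, 0.103% to 0.124% of all TPM. The sum was higher in every untrained 0 h library (1803, 1675 and 1805 TPM) and highest in untrained muscle at 6 h, with 3669, 4254 and 3612 TPM, 3.33 times the sedentary mean. Trained muscle held 1803 (the shared library), 1774 and 1538 TPM at 0 h and 2223, 1488 and 1323 TPM at 6 h, so its highest 6 h library stayed well below the lowest untrained one. At 72 h, the sum was 1298, 1499 and 1419 TPM in untrained and 941, 950.2 and 979 TPM in trained muscle, and all trained 72 h libraries lay below all sedentary ones. These are levels per length, without a test. Since the total is near-equal in every library, they also depend on the share held by transcripts of the mitochondrial genome. That share was 42.2% to 46.9% in sedentary, 37.7% to 40.6% in 0 h and 46.7% to 48.0% in trained 72 h libraries.

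**Figure D1:**
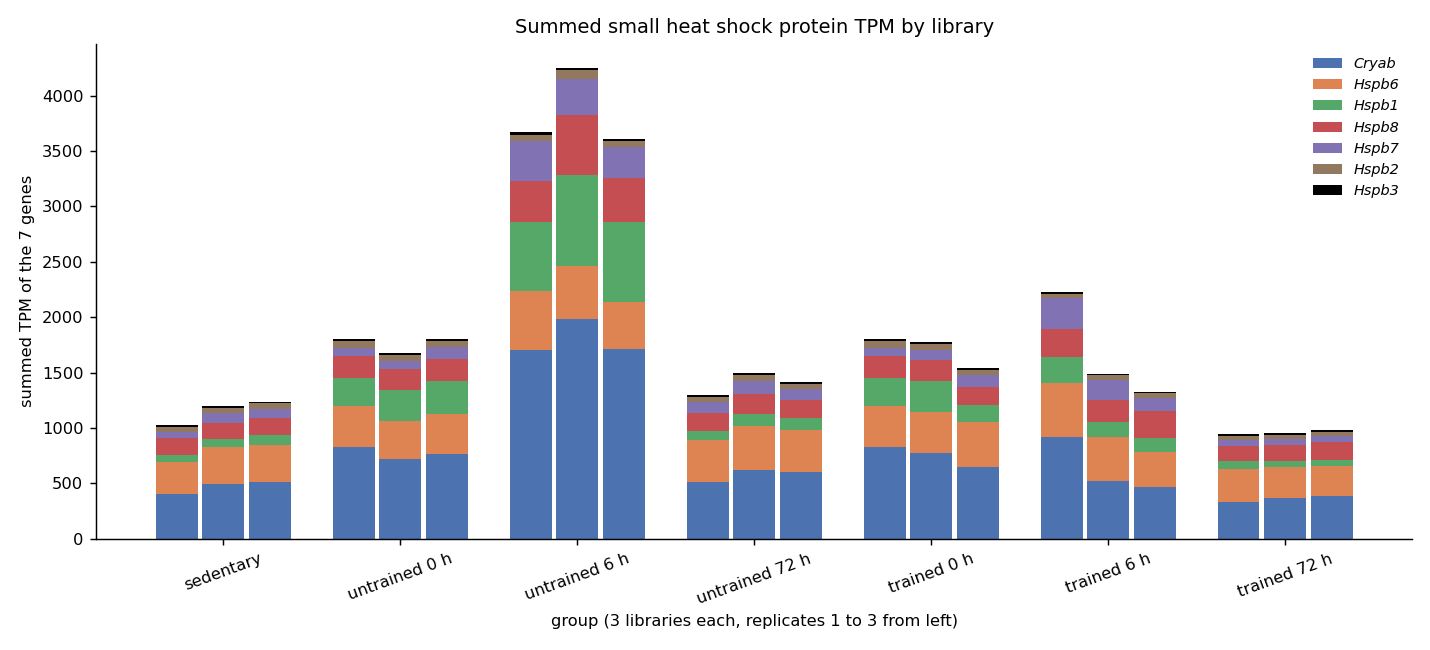
Summed TPM of the 7 genes in each of the 21 libraries (y axis, TPM, linear from 0), stacked by gene, grouped by condition along the x axis with replicates 1 to 3 from left. The untrained 6 h libraries stand at 3612 to 4254 TPM, above every other library, and Cryab is the largest block in each library.

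The members differed widely in level. In sedentary muscle Cryab was the most abundant (470.0 ± 60.1 TPM, SD, n = 3 here and below) and ranked 134 among all symbols, followed by Hspb6 (319 ± 27.0 TPM), Hspb8 (147 ± 6.90 TPM), Hspb1 (76.6 ± 7.40 TPM), Hspb7 (75.0 ± 17.8 TPM), Hspb2 (48.9 ± 5.31 TPM) and Hspb3 (16.5 ± 0.727 TPM, rank 2608). Hspb1 and Hspb7 overlapped in level. The composition of the sum differed between groups. Hspb1 made up 6.65% of the summed TPM in sedentary and 18.7% in untrained 6 h muscle, while Hspb6 held 27.7% and 12.5% and Cryab 40.7% and 46.8%. Other family genes were scarcely present, as Cryaa, Hspb9 and Odf1 reached at most 0.136 TPM in any library and Hspb11, an intraflagellar transport gene that carries the family name, lay between 3.50 and 6.00 TPM.

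Hspb1 encodes HSP25 (HSP27 in humans), the broadly expressed member that stabilises actin and desmin filaments. It was at 71.1, 73.7 and 85.0 TPM in the sedentary libraries. Directly after the run it stood at 244, 274 and 299 TPM in untrained and at 244, 282 and 155 TPM in trained muscle. At 6 h untrained muscle held 618, 827 and 719.7 TPM, and trained muscle 238, 140.0 and 126 TPM. All exercised libraries at 0 h and 6 h lay above all sedentary ones, and the untrained 6 h libraries lay far above every other library. By 72 h the values were 84.1, 105 and 109 TPM in untrained, where 1 library fell within the sedentary range, and 66.0, 55.7 and 56.4 TPM in trained muscle, all below it.

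Cryab encodes alphaB-crystallin, a lens protein that in muscle binds desmin and titin. Sedentary libraries held 401, 497 and 512 TPM. At 0 h untrained muscle held 827, 722 and 763 TPM, and trained muscle 827, 776 and 649 TPM. At 6 h the untrained libraries reached 1706, 1982 and 1708 TPM, while the trained ones held 922, 516 and 469 TPM. Trained 6 h replicate 1 was the highest of its group, and the other two were within or just above the sedentary range. At 72 h Cryab lay at 516, 618 and 606 TPM in untrained and at 329, 363 and 386 TPM in trained muscle. The trained libraries were all below the sedentary ones. The lowest untrained library was just above the highest sedentary one. Median-of-ratios scaling divides that untrained library by 1.02 and sedentary replicate 2 (497 TPM) by 0.949, so this gap depends on the scaling.

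Hspb8 encodes HSP22, the partner of the co-chaperone BAG3 in the selective autophagy of damaged filamin C. It was at 146, 141 and 154 TPM in sedentary muscle. The 0 h libraries were all above it, with 202, 188 and 201 TPM in untrained and 202, 191 and 166 TPM in trained muscle. At 6 h the values were 374, 539 and 399 TPM in untrained and 249, 194 and 245 TPM in trained muscle. The 2 groups did not overlap with each other or with the sedentary libraries. At 72 h, 158, 187 and 166 TPM in untrained and 139, 149 and 165 TPM in trained muscle were near the sedentary level.

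Hspb7, also called cvHSP, is the heart and skeletal muscle member that binds filamin C. Sedentary libraries held 56.4, 91.7 and 77.1 TPM. Directly after the run it stood at 74.9, 71.8 and 104 TPM in untrained and at 74.9, 86.2 and 101 TPM in trained muscle, overlapping with the sedentary libraries. At 6 h it stood at 358, 327 and 285 TPM in untrained and at 284, 186 and 117 TPM in trained muscle. Every 6 h library was above every sedentary and 0 h library, and the highest trained value lay just below the lowest untrained one. At 72 h the 3 trained libraries clustered at 51.1, 49.95 and 49.3 TPM, below all sedentary libraries. The untrained ones held 100.1, 115 and 92.5 TPM. The lowest of these was just above the highest sedentary library. Median-of-ratios scaling divides these libraries by 0.996 and 0.949, so this gap also depends on the scaling.

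Hspb6 encodes HSP20, which binds actin in smooth and striated muscle. It stood at 288, 329.9 and 338 TPM in sedentary muscle and at 533, 478 and 428 TPM in untrained and 479.8, 399 and 316 TPM in trained muscle at 6 h. The trained 6 h libraries overlapped both other groups. In the remaining exercised groups it ranged from 268 TPM (trained 72 h) to 403 TPM (trained 0 h).

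Hspb2 and Hspb3 encode the pair of muscle members that assemble into a joint oligomer, and Hspb2 is known as a binder of the myotonic dystrophy protein kinase. Hspb2 was at 46.0, 45.6 and 54.99 TPM in sedentary, 59.8, 73.3 and 55.5 TPM in untrained 6 h and 37.4, 40.7 and 38.6 TPM in trained 6 h muscle. Hspb3 was at 17.0, 15.7 and 16.7 TPM in sedentary, 20.3, 26.7 and 18.3 TPM in untrained 6 h and 12.5, 12.4 and 11.1 TPM in trained 6 h muscle. For both genes the trained 6 h libraries were all below, and the untrained 6 h libraries all above, the sedentary ones. They were the only members whose trained 6 h libraries all lay below sedentary muscle.

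**Figure D2:**
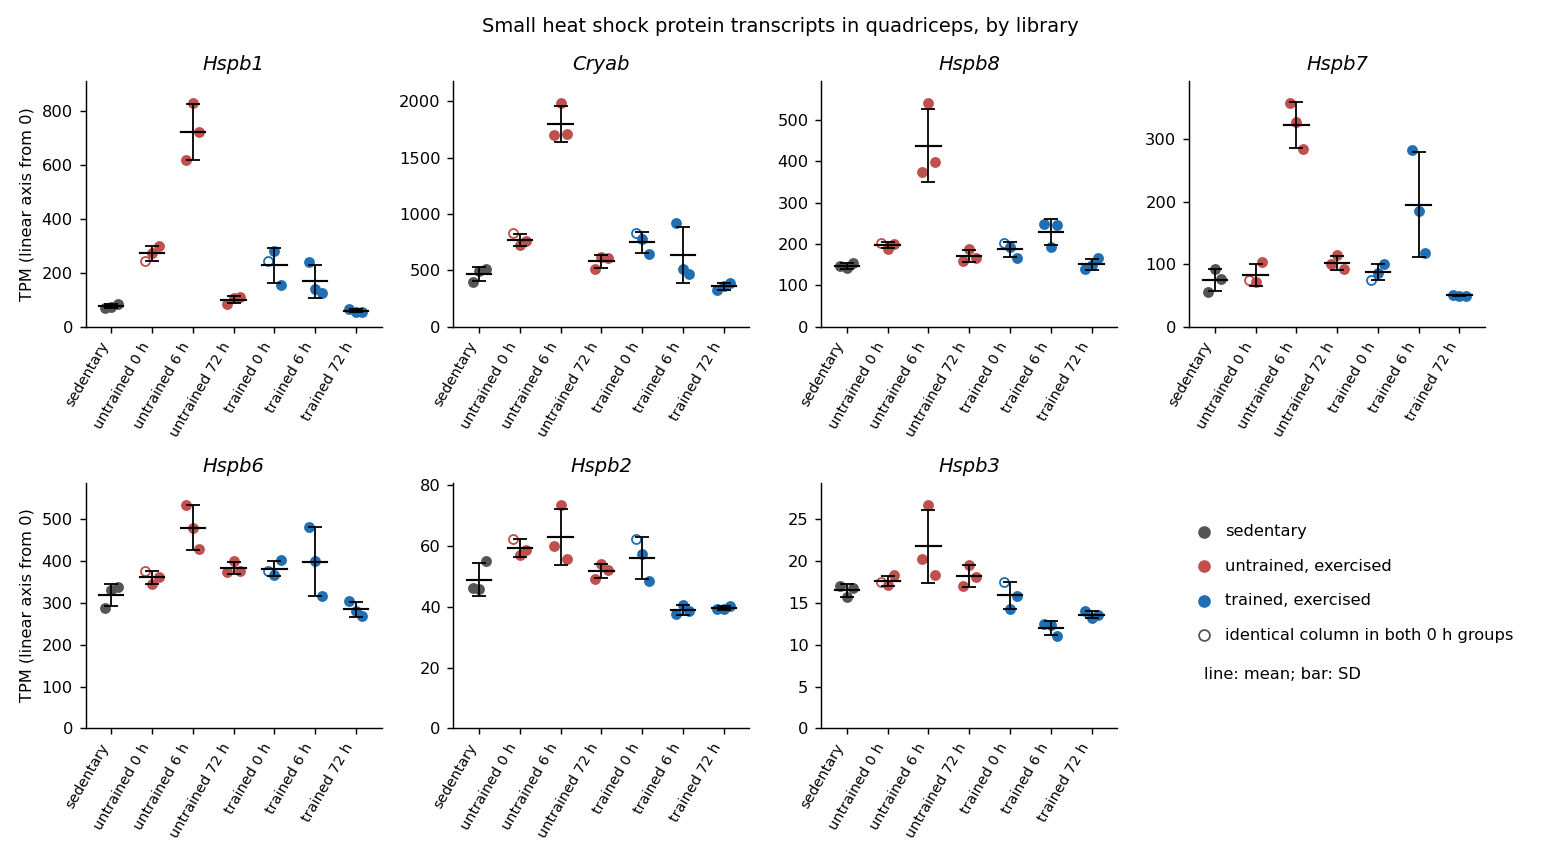
TPM of each gene in each library (points, linear y axis from 0) with the group mean (line) and SD (bar, n = 3), in grey for sedentary, red for untrained and blue for trained muscle. Open points mark the column that is identical in both 0 h groups. Hspb1 is above every sedentary library at 0 h and 6 h in both training states. Cryab is above them at 0 h in both and at 6 h in untrained muscle, and Hspb7 at 6 h in both. Every trained 6 h library is below every untrained 6 h library for all genes but Hspb6, for Hspb7 by a margin that depends on the scaling. The share of all genes separated in this way was not counted.

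Group differences in log2(TPM + 0.5) came from a single limma model of the 7 groups, with Benjamini-Hochberg adjustment over the 11819 genes that averaged 1 TPM or more. Called here means that the adjusted p was below 0.05 and the fold in either direction reached 1.5. Differences on this scale are between group means of log2 values. In bulk muscle, fewer cells of a type and less RNA per cell cannot be told apart.

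Directly after the run, Hspb1 and Cryab were higher than in sedentary muscle, and the other 5 genes did not pass the test. In untrained muscle Hspb1 rose by 1.82 on the log2 scale (SE 0.225, adjusted p = 6.03e-05, limma) and Cryab by 0.72 (SE 0.188, adjusted p = 0.0286). These were 2 of 7 members, where 2.97% of all tested genes were called higher. In trained muscle Hspb1 rose by 1.52 (adjusted p = 0.000332) and Cryab by 0.68 (adjusted p = 0.0326), against 3.39% of all genes. Hspb8 was higher in every library of both groups but missed the threshold, with log2 differences of 0.42 (adjusted p = 0.0566) and 0.34 (adjusted p = 0.106). In untrained and trained muscle at 0 h the median difference of all tested genes was 0.10 and 0.13. There 70.7% and 76.3% of all genes were positive. Relative to that median, Hspb1 stood at 1.72 and 1.39, Cryab at 0.61 and 0.54 and Hspb8 at 0.32 and 0.20. Hspb7 differed by 0.16 and 0.24, with 95% intervals from -0.36 to 0.69 and from -0.29 to 0.76. Hspb3 differed by 0.10 and -0.05. The differences of Hspb3 and Hspb7 in untrained muscle changed sign under other scalings. Without the shared library Hspb1 was still called in untrained (1.90, adjusted p = 0.000508) and in trained muscle (1.45, adjusted p = 0.00407), and Cryab was not (0.67, adjusted p = 0.1204, and 0.60, adjusted p = 0.128). Hspb8 then differed by 0.40 and 0.28, Hspb7 by 0.23 and 0.34 and Hspb3 by 0.10 and -0.13, none of them called. The call of Cryab was also lost under median-of-ratios scaling (0.62, adjusted p = 0.0628, and 0.54, adjusted p = 0.118). It was lost in both comparisons without sedentary replicate 1 (0.61, adjusted p = 0.125, and 0.57, adjusted p = 0.137) or replicate 2 (0.76, adjusted p = 0.0656, and 0.72, adjusted p = 0.0775), and without untrained 0 h replicate 3 (0.73, adjusted p = 0.0677) or trained 0 h replicate 2 (0.65, adjusted p = 0.0857).

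At 6 h, 5 of the 7 genes were higher in untrained than in sedentary muscle, among 3.53% of all genes called higher. Hspb1 rose by 3.22 (SE 0.225, adjusted p = 1.94e-07), 9.42 times the sedentary mean, and ranked 29 among all tested genes by its rise. Hspb7 rose by 2.12 (SE 0.247, adjusted p = 3.53e-05), Cryab by 1.94 (SE 0.188, adjusted p = 5.58e-06) and Hspb8 by 1.55 (SE 0.128, adjusted p = 9.39e-07). Hspb6 was just past the threshold at 0.59 (adjusted p = 0.00403), and it fell short of it under the other scalings (0.52 to 0.57) and without sedentary replicate 1 or untrained 6 h replicate 1 (0.51 in each case). It was not called either with only these 2 groups in the model (0.59, adjusted p = 0.0733). Hspb2 (0.36, adjusted p = 0.0392) and Hspb3 (0.37, adjusted p = 0.0383) were below the fold threshold. The median log2 difference of the 7 genes was 1.55 and that of all tested genes 0.01.

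In trained muscle at 6 h, 3 of the 7 genes were higher than in sedentary muscle, against 2.41% of all genes. These were Hspb7 (1.31, SE 0.247, adjusted p = 0.00302), Hspb1 (1.07, SE 0.225, adjusted p = 0.00641) and Hspb8 (0.63, SE 0.128, adjusted p = 0.00500). Cryab differed by 0.38 with a 95% interval from -0.02 to 0.77 (adjusted p = 0.234). Hspb3 was lower by a log2 difference of -0.44 (adjusted p = 0.0143), short of the fold threshold, and Hspb2 had -0.32 (adjusted p = 0.0587). In a model with only the trained 6 h and sedentary libraries none of the 3 was called, with adjusted p = 0.121, 0.0923 and 0.0545. Hspb8 also fell below the fold threshold without trained 6 h replicate 1 (0.57) or replicate 3 (0.58).

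At 72 h, 0 of the 7 genes was called in untrained or in trained muscle. In untrained muscle 0.00846% of all genes were called in either direction (1 gene, with 682 at an unadjusted p under 0.05), and in trained muscle 0.169% (20 genes, with 1379 at an unadjusted p under 0.05). All 7 log2 differences were positive in untrained muscle, from 0.08 for Hspb2 to 0.47 for Hspb7, in a comparison where 62.1% of all genes were positive. In trained muscle 6 of 7 were negative, from -0.16 for Hspb6 to -0.55 for Hspb7 (adjusted p = 0.410), and Hspb8 had 0.03. There 38.7% of all genes were positive.

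**Figure D3:**
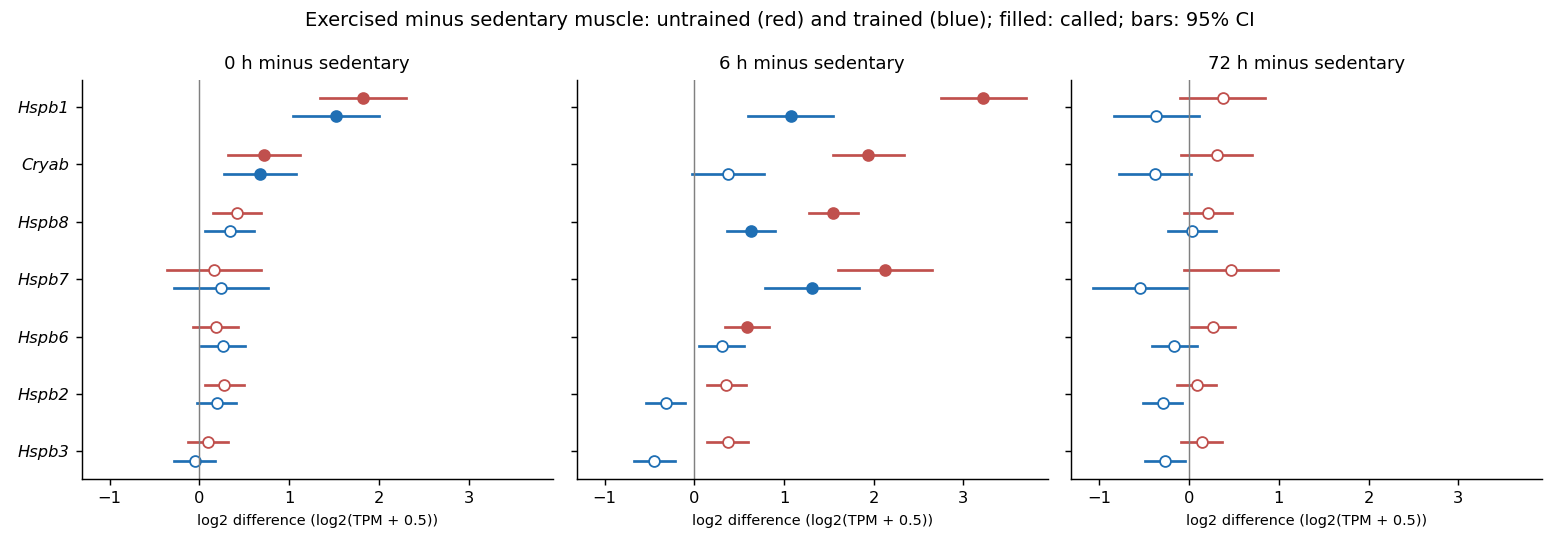
Log2 difference from sedentary muscle for each gene directly, 6 h and 72 h after the run in untrained (red) and trained (blue) muscle, with 95% confidence intervals as bars and filled points for called differences, on 1 shared x axis. At 6 h the intervals of Hspb1, Cryab, Hspb8, Hspb2 and Hspb3 do not overlap between untrained and trained muscle.

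Between 0 h and 6 h, 4 of the 7 genes rose further in untrained muscle, against 2.04% of all genes. Hspb7 rose by 1.96 (SE 0.247, adjusted p = 8.11e-05), Hspb1 by 1.40 (SE 0.225, adjusted p = 0.000651), Cryab by 1.22 (SE 0.188, adjusted p = 0.000461) and Hspb8 by 1.13 (SE 0.128, adjusted p = 3.23e-05). Their libraries did not overlap between the 2 times, and all 4 were still called without the shared library (1.89, 1.32, 1.27 and 1.15). Hspb6 differed by 0.41 (adjusted p = 0.0339), short of the fold threshold. In trained muscle Hspb7 was the only member called from 0 h to 6 h, higher by 1.08 (SE 0.247, adjusted p = 0.00596), against 1.51% of all genes, and by 0.97 (adjusted p = 0.0348) without the shared library. It was not called in a model with only these 2 groups (adjusted p = 0.0957). Hspb1 (-0.45, adjusted p = 0.154) and Cryab (-0.30, adjusted p = 0.258) did not pass in trained muscle. Without trained 6 h replicate 1, the highest of its group in all members but Hspb2, both were called lower at 6 h than at 0 h (-0.73, adjusted p = 0.0243, and -0.60, adjusted p = 0.00603). Without trained 0 h replicate 3, the lowest 0 h library in Hspb1, Hspb1 (-0.70, adjusted p = 0.0320) and Hspb2 (-0.61, adjusted p = 0.00119) were called lower. Hspb2 (-0.51, adjusted p = 0.00252) and Hspb3 (-0.39, adjusted p = 0.0158) were lower in trained muscle at 6 h than at 0 h in every library but short of the fold threshold. Without the shared library they differed by -0.43 (adjusted p = 0.0177) and -0.32 (adjusted p = 0.0833). The median difference of all tested genes from 0 h to 6 h in trained muscle was -0.15, and 27.3% of all genes were positive.

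Trained and untrained muscle were also compared directly at each time. This is a difference in level, in which an effect of training at rest and a different response to the run cannot be told apart. At 0 h it did not call any member or any other gene (0% of all genes, 143 at an unadjusted p under 0.05). The intervals were wide, from -0.78 to 0.18 for Hspb1 and from -0.44 to 0.36 for Cryab, and the 2 groups share a library. Without it the differences were -0.45 for Hspb1 (95% interval from -1.07 to 0.17) and -0.06 for Cryab.

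At 6 h, 5 of the 7 genes were lower in trained than in untrained muscle, among 1.46% of all genes called lower. Hspb1 differed the most, with a log2 difference of -2.15 (SE 0.225, adjusted p = 4.68e-05), followed by Cryab with -1.56 (SE 0.188, adjusted p = 0.000150), Hspb8 with -0.92 (SE 0.128, adjusted p = 0.000565), Hspb3 with -0.82 (SE 0.107, adjusted p = 0.000322) and Hspb2 with -0.68 (SE 0.103, adjusted p = 0.00118). In each of these genes all 3 trained libraries lay below all 3 untrained ones. Reads from the stretch shared by Hspb2 and Cryab cannot be told apart, so their calls may not be independent. Hspb7 had -0.81 (adjusted p = 0.0791), and without trained 6 h replicate 1 it was called (-1.12, adjusted p = 0.0108). Its highest trained library (283.7 TPM) was barely below its lowest untrained one (284.7 TPM). Median-of-ratios scaling divides these libraries by 0.965 and 1.02, so their order depends on the scaling. Hspb6 had -0.28 (adjusted p = 0.205) with overlapping libraries. Without untrained 6 h replicate 2, Hspb2 was below the fold threshold (-0.56, adjusted p = 0.00643). With only the 6 h libraries in the model, the same differences had adjusted p values of 0.0793 for Hspb1, 0.154 for Cryab, 0.151 for Hspb2, 0.171 for Hspb3 and 0.176 for Hspb8, and none was called.

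The change from 0 h to 6 h was smaller in trained than in untrained muscle for 3 of 7 genes, against 0.533% of all genes called lower. The difference of the changes was -1.85 for Hspb1 (SE 0.318, adjusted p = 0.0121), -1.52 for Cryab (SE 0.265, adjusted p = 0.0128) and -0.84 for Hspb8 (SE 0.180, adjusted p = 0.0411). Without the shared library none of the 3 was called (-1.70, adjusted p = 0.0758, -1.50, adjusted p = 0.0638, and -0.79, adjusted p = 0.147), and none was called with only these 4 groups in the model. The call of Hspb8 held in 4 of the 12 fits that left out 1 library, and was lost without each untrained 0 h library, untrained 6 h replicate 2, trained 0 h replicates 1 and 2, or trained 6 h replicates 2 and 3 (adjusted p = 0.0686 to 0.118). Hspb3 was called without untrained 6 h replicate 1 (-0.71, adjusted p = 0.0335) or replicate 3 (-0.78, adjusted p = 0.0187), and Hspb2 without untrained 6 h replicate 3 (-0.67, adjusted p = 0.0463) or trained 0 h replicate 3 (-0.69, adjusted p = 0.0405). For Hspb7 the difference of the changes was -0.88 with a 95% interval from -1.63 to -0.14 (adjusted p = 0.380).

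At 72 h no member was called between trained and untrained muscle, against 0.245% of all genes in either direction and 1769 at an unadjusted p under 0.05. All 7 differences were negative, in a comparison where 30.3% of all genes were positive. They were -1.02 for Hspb7 (adjusted p = 0.0902), -0.74 for Hspb1 (adjusted p = 0.146), -0.69 for Cryab (adjusted p = 0.116), -0.43 for Hspb6 (adjusted p = 0.116), -0.41 for Hspb3 (adjusted p = 0.109), -0.38 for Hspb2 (adjusted p = 0.116) and -0.17 for Hspb8 (adjusted p = 0.567). In all but Hspb8 every trained library lay below every untrained one. How many of all genes were separated in this way was not counted. With only the 72 h libraries in the model Hspb7 was called (adjusted p = 0.0251).

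**Figure D4:**
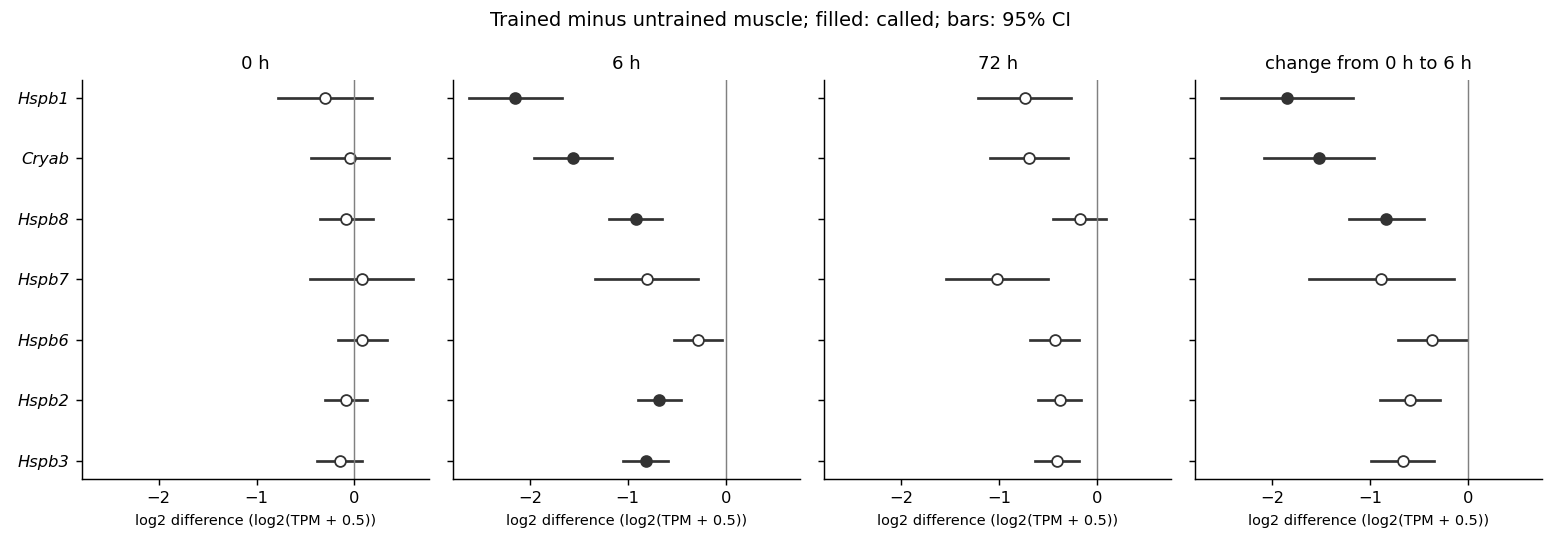
Log2 difference of trained minus untrained muscle for each gene directly, 6 h and 72 h after the run, and the same for the change from 0 h to 6 h, with 95% confidence intervals as bars and filled points for called differences, on 1 shared x axis. The 6 h differences run from -2.15 for Hspb1 to -0.28 for Hspb6, and the 0 h intervals all include 0.

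The HSP70, HSP90, HSP40 and HSP60 chaperones and co-chaperones known as heat shock factor targets, a list of 18 genes, were set beside the small heat shock protein genes. Of these, 12 were higher at 0 h in untrained and 12 in trained muscle, 11 at 6 h in untrained and 4 at 6 h in trained muscle, and 0 at 72 h in either group. Of all tested genes, 2.97% and 3.39% were called higher at 0 h in untrained and trained muscle, and 3.53% and 2.41% at 6 h. In untrained muscle 1 of the 18 rose from 0 h to 6 h and 1 fell, where 4 of the 7 small heat shock protein genes rose. Of all genes 2.04% rose and 2.6% fell in that comparison. In trained muscle 8 of the 18 fell from 0 h to 6 h, where 1 of the 7 rose and none fell, against 4.94% of all genes called lower. Without the shared library the 0 h counts were 11 and 11, and 6 fell from 0 h to 6 h in trained muscle. Whether the 2 lists differ was not tested. Dnajb1, an HSP40 that activates HSP70, was higher by 5.36 in untrained muscle at 0 h (adjusted p = 2.95e-10) and by 3.59 at 6 h (adjusted p = 4.08e-08), and from 0 h to 6 h it fell by 1.77 (adjusted p = 4.62e-05). Without the shared library Dnajb1 stood at 5.46 at 0 h, Hsp90aa1 at 3.62 and Hspa1a at 5.93, all called. Hsp90aa1, the inducible HSP90, stood at 3.45 and 3.52 above sedentary muscle at these times (adjusted p = 1.48e-06 and 1.09e-06). Hspa1a, the inducible HSP70, was higher by 5.63 and 6.33, although its near-identical copy Hspa1b makes the split of reads uncertain. At 6 h 8 of the 18 were lower in trained than in untrained muscle, among 1.46% of all genes called lower. Dnajb1 was lower by a log2 difference of -3.35 (adjusted p = 3.83e-07). The summed level of the 18 was 1218 to 1528 TPM in sedentary, 2610.4 to 2825 TPM in untrained 0 h and 2368 to 3615 TPM in untrained 6 h muscle.

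**Figure D5:**
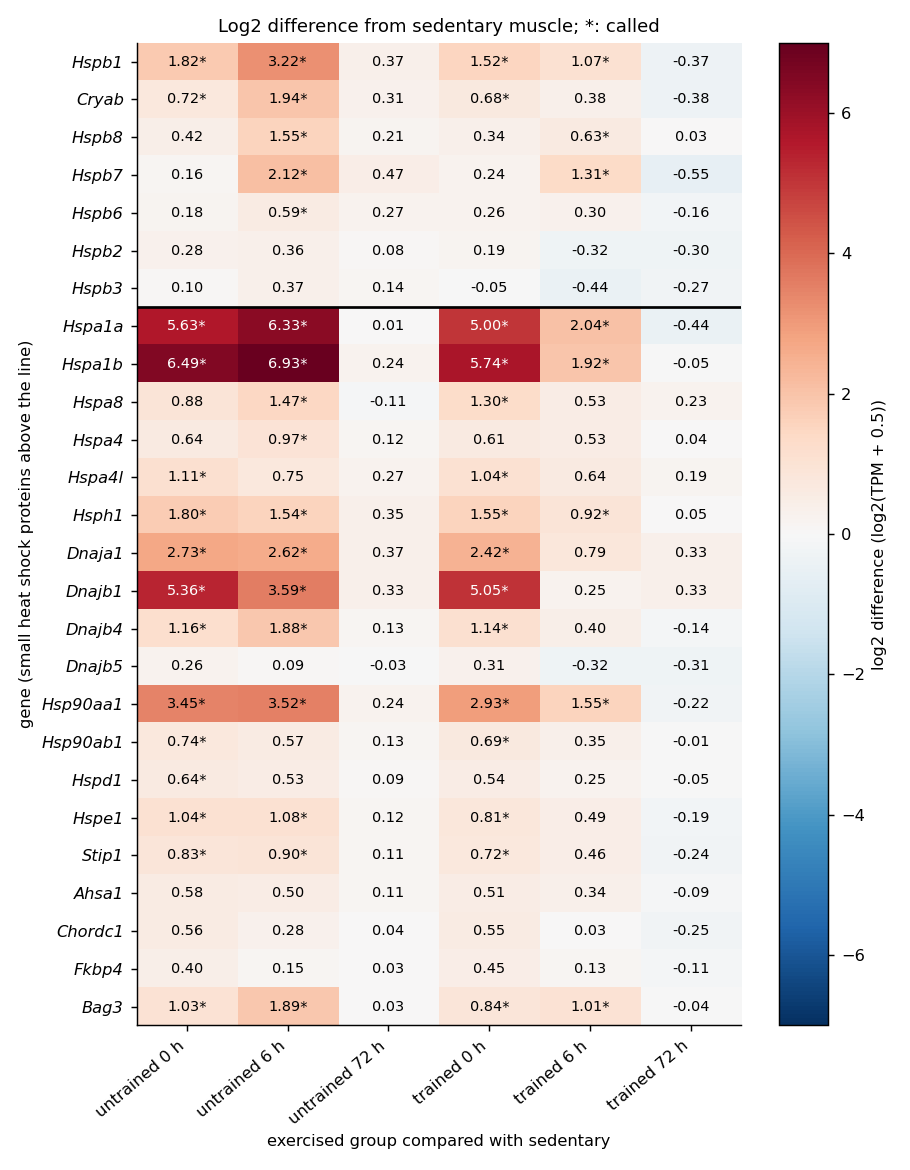
Log2 difference from sedentary muscle in the 6 exercised groups (columns) for the 7 small heat shock protein genes (above the line) and the 18 listed chaperones with Bag3 (below it), coloured from blue (lower) to red (higher), with the value in each cell and an asterisk where it was called. Hspb7 is called at 6 h only. In untrained muscle Dnajb1 is higher at 0 h than at 6 h, whereas Hspa1a and Hsp90aa1 are not.

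Heat shock factors themselves were not called in any comparison, and neither was Hsbp1, a heat shock factor binding protein listed with them. Of these 6 listed genes 4 were tested, Hsbp1 among them, and Hsf3 and Hsf5 reached at most 0.0121 TPM. Hsf1, the main stress-responsive factor, lay between 11.8 and 17.7 TPM over all libraries, and Hsf2 differed by 0.45 in untrained 6 h muscle (adjusted p = 0.00326), short of the fold threshold. Of 8 genes of BAG3-dependent autophagy, the pathway of Hspb8, 1 was called higher at 0 h in each training state, 2 at 6 h in untrained and 1 at 6 h in trained muscle. Over all tested genes, 2.97% and 3.39% were called higher at 0 h in untrained and trained muscle, and 3.53% and 2.41% at 6 h. Bag3 rose by 1.03 (adjusted p = 0.000115) and 0.84 (adjusted p = 0.000685) at 0 h, by 1.89 (adjusted p = 2.19e-07) in untrained and by 1.01 (adjusted p = 0.000251) in trained muscle at 6 h, and was lower in trained than untrained muscle at 6 h (-0.87, adjusted p = 0.00142). Its 0 h differences without the shared library were 1.08 and 0.81, both called. Sqstm1, the autophagy receptor p62, was the other gene, at 0.70 in untrained 6 h muscle (adjusted p = 0.0189).

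Of 9 Z-disc and intermediate filament proteins that small heat shock proteins bind, Flnc (filamin C) alone was called against sedentary muscle. At 6 h, 3.53% and 2.41% of all genes were called higher in untrained and trained muscle. Flnc resembled Hspb7, its binding partner, in time course. It differed by 0.28 at 0 h in untrained muscle (adjusted p = 0.404, and 0.41, adjusted p = 0.304, without the shared library), rose by 2.64 at 6 h (adjusted p = 2.78e-07), and rose by 0.98 in trained muscle at 6 h (adjusted p = 0.00421). It was lower in trained than untrained muscle at 6 h (-1.65, adjusted p = 0.000125).

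The likeness of expression was measured as Pearson's r of log2(TPM + 0.5) over the 20 distinct libraries, among 6120 genes that averaged 5 TPM or more. It is a description, since the libraries share their 7 groups. Among the members Hspb1 and Cryab were most alike (r = 0.959), then Hspb6 and Hspb7 (0.906), Cryab and Hspb8 (0.905), Hspb1 and Hspb8 (0.886) and Hspb2 and Hspb3 (0.874), while Hspb2 and Hspb7 were least alike (0.323). Next to Gm9817, the genes most like Hspb1 were Tubb6, a beta-tubulin (0.975), and Dnajb4, an HSP40 (0.972). Cryab was followed by Wdr61 (0.973), Tubb6 (0.972) and Dnaja4, another HSP40 (0.971). For Hspb7 they were Ehd4 (0.947), Flnc (0.928) and Tnfrsf12a, the receptor of the cytokine TWEAK (0.924), and for Hspb8 they were Hbegf, a growth factor of the EGF family (0.974), Psmd11, a proteasome subunit (0.961), and Arf6 (0.958). Hspb6 was most like Fhl1, a LIM domain protein of muscle (0.936), Arpp19 (0.910) and Hspb7. Hspb2 was most like Jsrp1, a protein of the excitation-contraction coupling machinery (0.929), Serinc2 (0.902) and Rai2 (0.902). Hspb3 was most like Hspb2, Asb12 (0.873) and Cobl (0.856).

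Markers of fibre types and other cells moved with some groups. In untrained against sedentary muscle, 0.618% of all genes were called lower at 0 h and 0.888% at 6 h. Of 8 slow fibre markers, 1 was lower at 0 h and 2 at 6 h in the same comparisons, and without the shared library none was called at 0 h. Their summed TPM was 592 to 1143 in sedentary, 307 to 441 in untrained 0 h, 285 to 434 in untrained 6 h and 399 to 579 in untrained 72 h muscle. In trained muscle it was 338 to 797 at 0 h, 425 to 1262 at 6 h and 323 to 487 at 72 h, and no marker was at 0. All untrained libraries were thus below the sedentary ones in slow fibre markers, and so were the trained 72 h libraries. Summed small heat shock protein transcripts were below all sedentary libraries in trained 72 h muscle, but above them in every untrained library. Untrained 6 h muscle held 3612 to 4254 TPM of them with 285 to 434 TPM of slow fibre markers. Trained 6 h replicate 1, the highest of its group in all members but Hspb2, had the highest summed slow fibre markers of all libraries. Of 6 tested macrophage markers, 2 were higher at 6 h in untrained muscle, among 3.53% of all genes called higher. Cd68, which averaged 2.55 TPM over all libraries, was among the 2. It rose by 1.62 (adjusted p = 6.41e-05) and was lower in trained than untrained muscle at 6 h (-1.47, adjusted p = 0.000473). Cd68 does not stand for the list, in which Lyz2 averaged 23.7 TPM, C1qa 7.50 TPM and C1qb 7.10 TPM. The summed level of the 7 macrophage markers was 37.7 to 41.8 TPM in sedentary muscle. It was 47.5 to 52.6 TPM at 0 h, 33.7 to 70.7 TPM at 6 h and 54.7 to 58.9 TPM at 72 h in untrained muscle, and 47.3 to 48.2 TPM, 32.0 to 46.1 TPM and 39.8 to 45.7 TPM in trained muscle. Every 0 h and untrained 72 h library was above every sedentary one, while the lowest untrained 6 h library was below all sedentary ones. In this sum the untrained and trained 6 h libraries overlapped. At 0 h 0 markers were called, and 1 in untrained muscle at 72 h, where 0.00846% of all genes were called. Untrained 6 h replicate 2 was at once the highest in macrophage markers and the highest in Hspb1, Cryab, Hspb8, Hspb2 and Hspb3, and the 5 calls at 6 h against sedentary muscle remained without it. Among the lists of fast fibre, smooth muscle, endothelial, fibro-adipogenic, adipocyte, red blood cell and Schwann cell markers, at most 2 genes of a list were called in any comparison with sedentary muscle. The part of slow fibres and macrophages in these results was not tested.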

How the data were processed

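Quadriceps RNA of 21 mouse libraries was sequenced by the authors as paired ends on an Illumina NovaSeq instrument after TruSeq preparation without strand information. Reads were aligned to GRCm39 with STAR 2.7.9 and quantified with Salmon 1.5.0. The annotation release is not given in the sources used here. The authors deposited TPM values, scaled per library to a near-equal total (997304 to 997921), per gene symbol. Depth is therefore unknown, and precision rests on 3 libraries a group. All columns were assigned from their labels, and 0 were left out.

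TPM values were transformed to log2(TPM + 0.5), and limma 3.58.1 (R 4.3.3) was run on the 11819 genes averaging 1 TPM or more, with 1 coefficient per group, a variance trend and 14 residual degrees of freedom. The identical 0 h column entered both 0 h groups, so these degrees of freedom and the spread estimate shared by all comparisons include a duplicate. For comparisons without a 0 h group, only the models with just the groups compared left it out. The 12 comparisons were each adjusted over all tested genes (Benjamini-Hochberg), not over each other. The procedure was tested on simulated data. Positions and overlaps were read from the GRCm39 annotation (GENCODE mouse release 39), promoters from RefSeq, and figures were drawn with matplotlib 3.10.9. Named were all 7 members, the 3 genes most like each, and genes of the lists called against sedentary muscle or near 0, of which the text gives a choice. The members, lists and tests were chosen with earlier results of these data known. Alternatives were other pseudocounts, filters, scalings, variance models, sample sets, a replicate block, no fold threshold, other uses of the shared library, and leaving out each library.

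Same-numbered replicates deviated together (Pearson's r across genes over 0.1 for every pair) in 1 of 11 comparisons of groups, that of trained with untrained 0 h muscle, which holds the identical columns, and r ranged from -0.115 to 0.686. The numbers were therefore used as names.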

Additional observations from a re-analysis of the deposited data

Results flagged for a closer look

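The difference between trained and untrained muscle was tested directly, and the following members passed the test. At 6 h the log2 difference of trained minus untrained muscle was -2.15 for Hspb1, -1.56 for Cryab, -0.92 for Hspb8, -0.82 for Hspb3 and -0.68 for Hspb2, and all 3 trained libraries were below all 3 untrained ones in each gene (limma, n = 3 a group). These are differences in level, equal to the difference between the 2 comparisons with the same sedentary libraries, and no group was trained and left unexercised. With only the 6 h groups in the model none of the 5 was called (adjusted p = 0.0793 to 0.176). The calls of Hspb2 and Cryab may not be independent, since their exons overlap. The change from 0 h to 6 h differed between trained and untrained muscle by -1.85 for Hspb1, -1.52 for Cryab and -0.84 for Hspb8, and these calls did not hold without the library that both 0 h groups share. The cause of these differences was not tested.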

How the results depend on the processing

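Of 84 differences of members, 25 were called and 10 of these were called under every alternative and without each library. Groups of 3 and a table without read counts limit what can be seen, and differences such as those at 72 h may be missed. The scalings moved the median of all genes by -0.121 to 0.142 (median of ratios), -0.173 to 0.184 (rescaled without the mitochondrial genome and the 10 highest genes) and -0.152 to 0.151 (quantile normalization). Relative to that median, Hspb1 in untrained muscle stood at 1.72 at 0 h (1.70 to 1.71 under the other scalings) and at 3.21 at 6 h (3.17 to 3.21), Cryab at 0.61 (0.60 to 0.68) and 1.93 (1.91 to 1.92).

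Directions reversed for small differences. Hspb3 in untrained 0 h muscle went to -0.00124 under median of ratios, -0.0726 when rescaled and -0.0400 under quantile normalization, and Hspb7 there to -0.0114 when rescaled and -0.0158 under quantile normalization. Hspb2 in trained 0 h muscle went to -0.00819 under quantile normalization, and Cryab between trained and untrained 0 h muscle to 0.00931 with the shared library kept in the trained group alone. Leaving out 1 library at a time, 8 small differences crossed 0. The ranges were -0.0307 to 0.318 for Hspb7 in untrained 0 h against sedentary muscle, -0.125 to 0.0181 for Hspb3 in trained 0 h against sedentary muscle, -0.0348 to 0.0913 for Hspb8 in trained 72 h against sedentary muscle, -0.0376 to 0.162 for Hspb2 from 0 h to 6 h in untrained and -0.102 to 0.199 for Hspb6 from 0 h to 6 h in trained muscle, and between trained and untrained 0 h muscle -0.117 to 0.0587 for Cryab, -0.0347 to 0.242 for Hspb7 and -0.168 to 0.0120 for Hspb2.

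The number of members called against sedentary muscle went from 2 to 1 at untrained 0 h under median of ratios, rescaling, no filter, and with the shared library left out or kept in the trained group alone. It went from 2 to 1 at trained 0 h under all 3 scalings, no filter, only the groups compared, and with the shared library left out or kept in the untrained group alone. With only the groups compared, 0 members were called in trained 6 h against sedentary muscle, between trained and untrained 6 h muscle, from 0 h to 6 h in trained muscle and for the difference of the changes, and 1 between trained and untrained 72 h muscle. Without the shared library 0 were called for the difference of the changes, and with no fold threshold 3 were called from 0 h to 6 h in trained muscle. Leaving out 1 library gave 1 to 2 members at untrained 0 h and at trained 0 h, 1 to 3 from 0 h to 6 h in trained muscle and 2 to 5 for the difference of the changes.

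Over all genes, a minimum mean of 5 TPM gave 218 and 309 calls in untrained muscle at 0 h and 6 h and 0 at 72 h, 225 and 254 in trained muscle at 0 h and 6 h, 134 between trained and untrained muscle at 6 h, and 279 from 0 h to 6 h in untrained and 359 in trained muscle. No fold threshold gave 882 and 1119 at 0 h and 6 h in untrained muscle, 1107 and 1227 in trained muscle, 539 and 49 between trained and untrained muscle at 6 h and 72 h, and 1377 and 2971 from 0 h to 6 h in untrained and trained muscle. Only the groups compared gave 220 and 10 in untrained muscle at 6 h and 72 h, 262 and 264 in trained muscle at 0 h and 6 h, 27 between trained and untrained muscle at 6 h, 276 from 0 h to 6 h in untrained muscle and 9 for the difference of the changes. No filter gave 7 in trained 72 h muscle, 15 between trained and untrained muscle at 72 h and 46 for the difference of the changes. In trained 72 h muscle a pseudocount of 1 gave 12, median of ratios 37 and quantile normalization 42, and rescaling gave 19 between trained and untrained muscle at 72 h. The shared library kept in the untrained group alone gave 3 between the 0 h groups, and leaving it out gave 37 for the difference of the changes. Leaving out 1 library gave 0 to 4 in untrained 72 h, 0 to 17 in trained 72 h, 0 to 3, 141 to 400 and 4 to 33 between trained and untrained muscle at the 3 times in order, and 38 to 217 for the difference of the changes. The causes of these changes were not tested.

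The share of called genes that were higher moved with scaling. Rescaling changed it from 82.8% to 63.0% at untrained 0 h, from 79.9% to 64.1% at untrained 6 h and from 27.7% to 49.0% between trained and untrained muscle at 6 h. At trained 0 h it went from 90.7% to 69.6% when rescaled and 79.8% under quantile normalization. Under median of ratios, rescaling and quantile normalization it went from 35.0% to 48.6%, 76.7% and 52.4% at trained 72 h, from 44.0% to 56.8%, 56.1% and 54.96% from 0 h to 6 h in untrained muscle, from 23.5% to 46.5%, 56.0% and 46.8% in trained muscle, and from 18.2% to 29.3%, 43.9% and 33.3% for the difference of the changes. Between trained and untrained muscle at 72 h it went from 24.1% to 35.0% under median of ratios and 52.6% when rescaled.

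With the replicate number as a block, 2 members were called for the difference of the changes, where Hspb8 was lost (-0.84, adjusted p = 0.0714), and the members' counts in the other 11 comparisons did not change.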
